A study of Mus musculus with 3 samples.

Results

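The genes described here are 34 mouse genes of the endoplasmic reticulum (ER) and its unfolded protein response (UPR). They encode stress sensors, chaperones, lectin chaperones, disulfide enzymes, factors of ER-associated degradation (ERAD) and subunits of the translocon. They were taken by function from a list of symbols, with earlier results of these data known, and each was read by its brightest probe. Their shares set against those of all genes are therefore not independent of these data. All 34 had a probe, among 19751 genes matched to one. The cells were T helper 2 (Th2), T helper 9 (Th9) and induced regulatory T cell (iTreg) cultures, each compared with naive CD4 T cells. The naive cells came from spleens of C57BL/6 mice of 6 to 8 weeks and were enriched with magnetic beads. Every culture was grown for 3 days on anti-CD3e with anti-CD28 in solution, each at 10 µg/ml. To the Th2 culture were added IL-2 at 1 ng/ml, IL-4 at 5 ng/ml and anti-IFN-γ at 2 µg/ml. The Th9 culture received IL-2 at 0.2 ng/ml, IL-4 at 1 ng/ml, TGF-β1 at 2 ng/ml and anti-IFN-γ at 5 µg/ml. For iTreg, IL-2 was at 0.4 ng/ml and TGF-β1 at 5 ng/ml, with anti-IFN-γ and anti-IL-4 at 5 µg/ml each.

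Each culture was hybridised once, in the Cy5 channel of a 2-colour array of 60-base probes, against naive RNA in the Cy3 channel. No dye was swapped, and no culture stimulated without polarising cytokines was among the samples. In a ratio against naive cells, stimulation, medium and dye therefore cannot be told apart. A value is a log2 ratio, culture over naive, and ± gives the scanner software's error for the spots of that array (n = 1 array). With 1 array per culture there is no test between conditions. Genes are described by size, as at least 2-fold higher or lower.

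Proteins of the secretory pathway enter the ER through the Sec61 translocon and fold there with chaperones such as BiP, the product of Hspa5. When unfolded protein accumulates, 3 sensors respond. IRE1 (Ern1) splices the messenger of Xbp1, PERK (Eif2ak3) slows translation and favours ATF4, and ATF6 is cleaved to a transcription factor. Together they raise chaperones, disulfide enzymes and ERAD factors. The pathway is best known in secretory cells such as plasma cells, and activated T cells, which secrete cytokines, also use it. The probes report total messenger, so splicing of Xbp1 and the phosphorylation or cleavage of the sensors were not measured.

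Of 43020 gene spots on each array, between 53.0% and 54.1% passed the scanner's background test in the naive channel and between 48.9% and 51.0% in the polarised channel, and no spot was saturated. Lineage genes followed the labels. Log2 intensity of Il4 was 12.47 in Th2, 8.24 in Th9 and not well above background in iTreg. Il9 stood at 9.17 in Th2 and 13.41 in Th9 and was not well above background in iTreg. Foxp3 stood at 8.21 in Th2, 10.24 in Th9 and 12.48 in iTreg. All 8 markers of CD4 T cells were above background in every channel, and their summed intensity was 201160 in Th2, 161520 in Th9 and 274969 in iTreg, against 344013 to 373944 in the naive channels. Of 10 markers of B and plasma cells, which are rich in ER, between 3 and 4 were above background in a culture and 3 in each naive channel. Their summed intensity was 3452 in Th2, 3153 in Th9 and 3060 in iTreg, against 2342 to 2380 in the naive channels. Of these, Cd79a, Ms4a1, Pax5, Tnfrsf17 and Blk were not well above background in any culture. Summed markers of NK and CD8 T cells were at 13787, 6803 and 8398 in Th2, Th9 and iTreg against 74522 to 79817 in naive cells. Those of myeloid cells, with a probe for 6 of 8 and between 2 and 3 above background in a culture, summed to 8617, 8292 and 17990, against 17681 to 20258 in naive cells, and Lyz2 and Cd14 were not well above background in any culture.

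The ER genes that respond to stress are known to carry the ER stress response element (ERSE), a CCAAT box spaced from CCACG, which NF-Y and ATF6 bind together. Promoter windows from RefSeq (build GRCm38.p6), from 250 bases before to 50 after the start, were searched on both strands. A window was given for 27 of the 34 genes. The ERSE, spelled here as CCAAT, 9 bases of any kind and CCACG, was found in 8 of those 27 genes (29.6%), where 0.137% of all 27025 genes with a window held it, or 0.119% of all 32851 windows. Since ER genes of this kind are known to carry the element, that contrast was in large part given in advance. Hsp90b1 had 2 sites. Among 98 other ER pathway genes with a window, 2 held it, namely Derl3 and Ero1lb. The shorter ERSE-II, ATTGG, 1 base of any kind and CCACG, was found in Herpud1 and Dnajb11 (7.41% of the 27) and in 0.0444% of all genes with a window. A plain CCAAT, part of both elements, was in 21 of the 27 genes (77.8%) and in 41.1% of all genes with a window. The XBP1 motif TGACGTGG was in 0 of the 27 genes and 0.714% of all genes with a window, and the ATF4 motif TGATGNAA in 1 of the 27 (Herpud1) and 4.51% of all. Below are the matches that lie before the start, with 15 bases on either side, printed 5′ to 3′ on the strand where the motif reads as spelled, with the match in capitals. For Hspa5 all 250 bases before the start are shown, with its 1 exact match to the ERSE 65 to 47 bases before the start. Only exact matches were counted, so an element spelled otherwise is neither marked nor counted. A match is a description of these letters and was not tested as a binding site. The match of Dnajb11 lies 8 to 18 bases after the start and is not printed.
Hspa5, 250 bases before the start, chr2:34771840-34772089 (+): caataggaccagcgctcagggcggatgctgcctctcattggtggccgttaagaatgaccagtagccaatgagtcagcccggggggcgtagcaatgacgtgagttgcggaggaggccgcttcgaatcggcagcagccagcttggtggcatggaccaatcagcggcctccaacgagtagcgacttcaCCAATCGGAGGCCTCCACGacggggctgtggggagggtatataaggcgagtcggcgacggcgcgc
Hsp90b1, ERSE 212 to 194 bases before the start, chr10:86705623-86705671 (-): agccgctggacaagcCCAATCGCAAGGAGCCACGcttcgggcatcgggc
Hsp90b1, ERSE 107 to 89 bases before the start, chr10:86705518-86705566 (+): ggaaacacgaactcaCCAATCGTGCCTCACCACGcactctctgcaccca
Calr, ERSE 162 to 144 bases before the start, chr8:84847060-84847108 (+): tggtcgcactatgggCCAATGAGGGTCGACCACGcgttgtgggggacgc
Canx, ERSE 145 to 127 bases before the start, chr11:50325785-50325833 (-): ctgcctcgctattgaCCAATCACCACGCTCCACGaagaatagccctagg
Pdia6, ERSE 98 to 80 bases before the start, chr12:17266476-17266524 (+): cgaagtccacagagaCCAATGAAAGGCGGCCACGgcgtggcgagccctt
Creld2, ERSE 126 to 108 bases before the start, chr15:88819505-88819553 (-): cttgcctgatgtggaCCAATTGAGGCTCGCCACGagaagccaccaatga
Dnajc3, ERSE 105 to 87 bases before the start, chr14:118937812-118937860 (+): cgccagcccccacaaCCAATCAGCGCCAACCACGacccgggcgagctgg
Syvn1, ERSE 44 to 26 bases before the start, chr19:6046517-6046565 (+): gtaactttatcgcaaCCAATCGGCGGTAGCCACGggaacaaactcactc
Herpud1, ERSE-II 52 to 42 bases before the start, chr8:94386362-94386402 (+): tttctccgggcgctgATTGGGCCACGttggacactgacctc

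In Th2 cells the set as a whole stood above naive cells, in Th9 cells less so, and in iTreg cells it did not. Of 33 members measured in Th2, 12 (36.4%) were at least 2-fold higher than in naive cells, where 14.8% of all 10945 measured genes were. Only 2 (6.06%) were at least 2-fold lower, where 14.5% of all genes were. In Th9, 10 of 33 were higher (15.5% of all 10782 genes) and 1 was lower (15.6% of all genes). In iTreg, 4 of 32 were higher (10.2% of all 11119 genes) and 2 were lower (8.15% of all genes). The members' median ratio was 0.44 in Th2, 0.25 in Th9 and -0.28 in iTreg. For all genes the medians were -0.02, -0.01 and -0.02. RNA came from whole cultures, so fewer cells of a type and less RNA per cell cannot be told apart.

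These counts depended on how the dyes were balanced. With median centring in place of loess, 19 members were higher and 0 lower in Th2, 13 and 0 in Th9, and 5 and 3 in iTreg. All genes shifted too under that scaling, to 2782 higher and 810 lower in Th2, 2313 and 1232 in Th9, and 910 and 1330 in iTreg. Their medians became 0.33, 0.16 and -0.18. Relative to those, the members' medians were higher by 1.10 in Th2 and 0.41 in Th9, and lower in iTreg, at -0.20. With no normalization, where the medians of all genes were 0.29, 0.35 and 0.34, 19 members were higher in Th2, 15 in Th9 and 6 in iTreg. None of them (0 in each culture) was then lower by 2-fold. Of all genes, 24.5%, 26.3% and 17.2% were then higher and 7.84%, 8.34% and 3.82% lower, so the 6 of 32 in iTreg were near the background. Signs that turned above 0 in iTreg with no normalization were those of Pdia6, Edem2, Sel1l, Derl2, Sec61a1 and Sec61b, and in Th9 those of Hspa5, Creld2, Pdia3 and Herpud1. The order Th2, Th9, iTreg of the members' medians was the same under all 3 scalings.

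**Figure D1:**
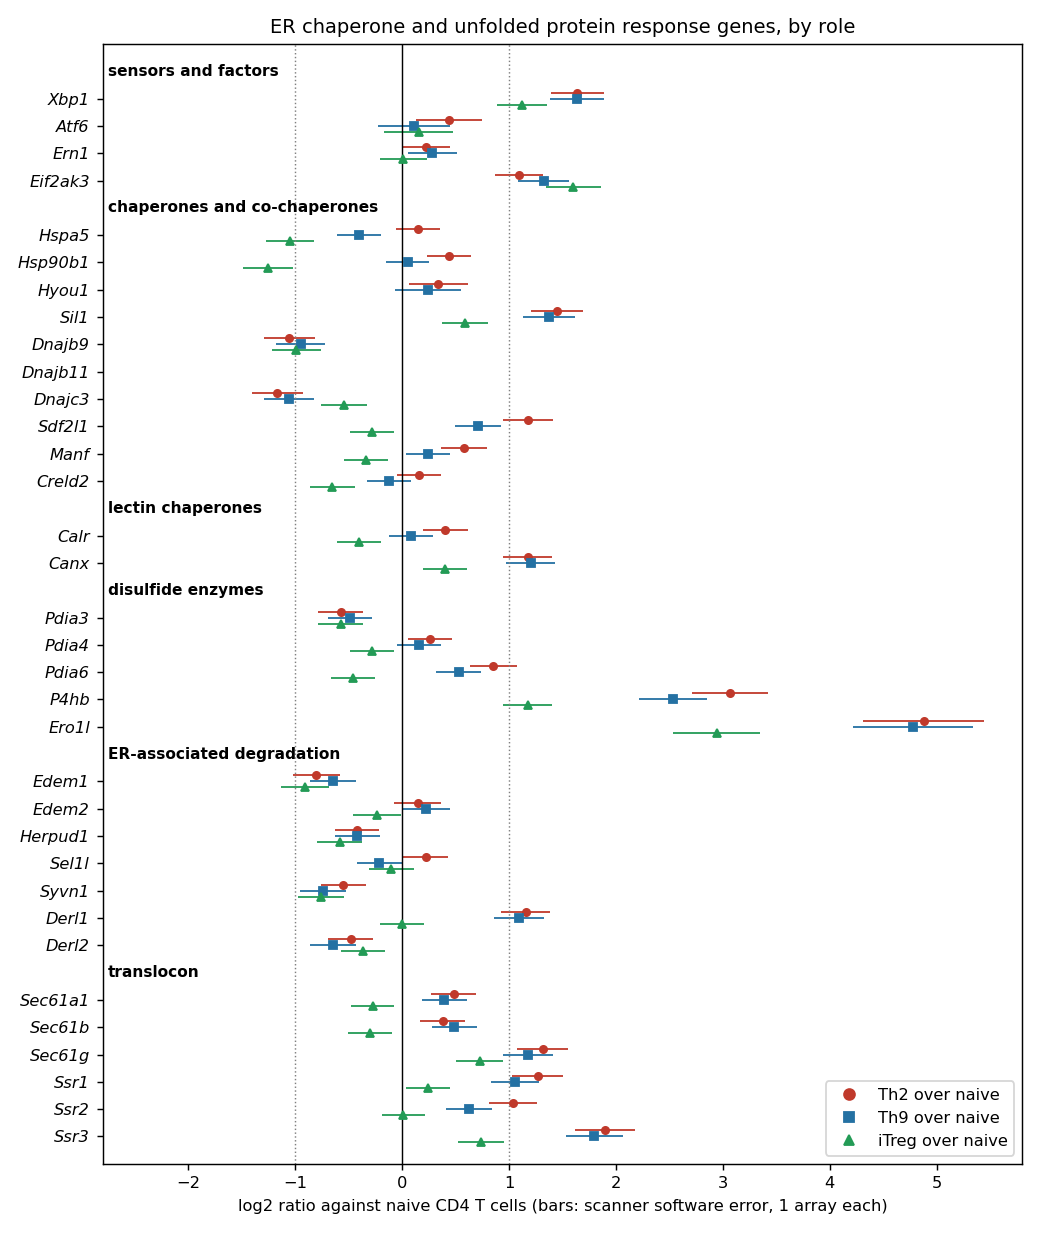
Log2 ratio of each culture over naive cells for the 34 genes, grouped by role, with bars for the scanner software's error on 1 array and dotted lines at 2-fold. Ero1l and P4hb lie farthest to the right, the iTreg triangles lie left of the Th2 circles for most genes, and Dnajb11 (all cultures) and Hyou1 (iTreg) are not drawn because they were not well above background.

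**Figure D2:**
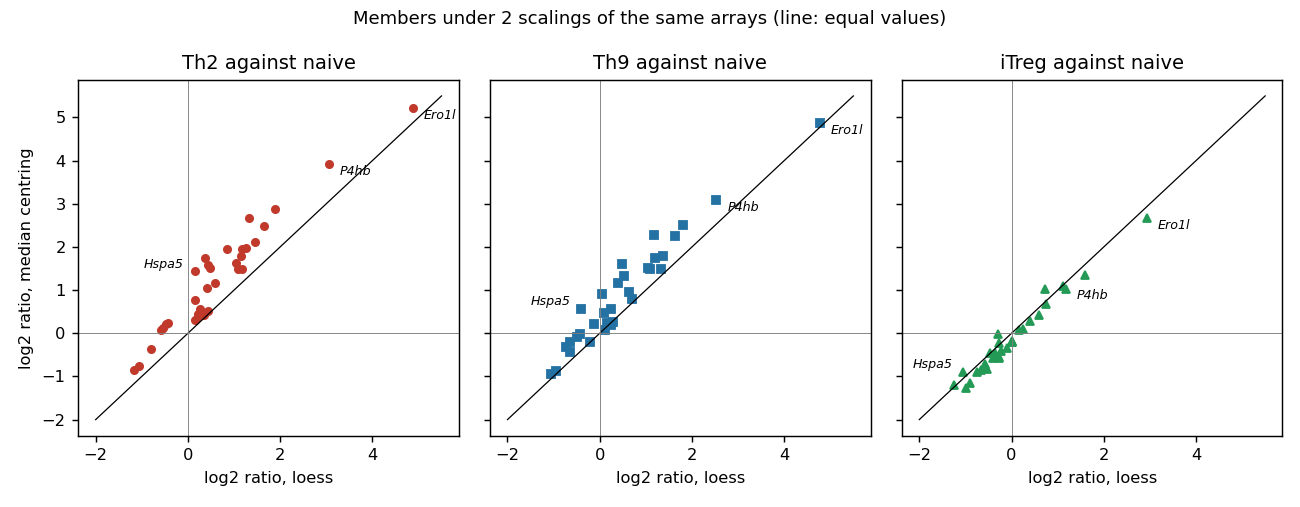
Log2 ratios of the members after loess (horizontal axis) against the same ratios after median centring (vertical axis), 1 panel per culture, with a line of equal values. In Th2 all points lie above the line and Hspa5 moves from 0.15 to 1.43, while in iTreg the points lie close to the line.

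The 4 sensors and factors split into a pair that was higher in every culture and a pair near naive levels. Xbp1 (NM_013842), the factor activated by IRE1, had a log2 intensity of 14.01 in Th2, 14.01 in Th9 and 13.66 in iTreg, against 12.37, 12.37 and 12.53 in the naive channels of those arrays. Its ratios were 1.64 ± 0.25, 1.64 ± 0.25 and 1.12 ± 0.23. Eif2ak3 (NM_010121), the kinase PERK, had 11.08, 11.33 and 11.52 in the cultures, against 9.99, 10.01 and 9.92 in naive cells. Its ratios of 1.10 ± 0.23 in Th2, 1.32 ± 0.24 in Th9 and 1.60 ± 0.26 in iTreg made it the only one of the 4 highest in iTreg by this scaling. Under median centring its difference between iTreg and Th2 turned from 0.50 ± 0.34 to -0.14. Ern1, the kinase and nuclease IRE1, was at 0.22, 0.28 and 0.01, and Atf6 at 0.44, 0.11 and 0.16, all with errors of 0.22 to 0.33. Both were dim, between 6.91 and 7.89 log2 units in every channel.

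Among the chaperones, BiP and GRP94 differed more between cultures than between Th2 and naive cells. Hspa5 (NM_022310), the Hsp70 chaperone BiP, had a log2 intensity of 14.94 in Th2, 14.40 in Th9 and 13.69 in iTreg, against 14.79, 14.80 and 14.73 in naive cells. Only the iTreg value stood clearly below its naive channel. The ratios were 0.15 ± 0.21, -0.40 ± 0.21 and -1.05 ± 0.22. Hsp90b1 (NM_011631), the Hsp90 chaperone GRP94, had 14.54, 14.22 and 12.94 in the cultures, against 14.10, 14.17 and 14.19 in naive cells. It stood at 0.44 ± 0.21 in Th2, 0.05 ± 0.20 in Th9 and -1.25 ± 0.23 in iTreg, which is 2.38-fold lower. Under median centring Hspa5 became 1.43, 0.56 and -0.89, so that its sign in Th9 turned, and Hsp90b1 became 1.59, 0.92 and -1.20. The iTreg value of Hspa5 lay just past the 2-fold line and fell inside it with the scanner's processed signals (-0.96), with no offset (-0.99) and with no normalization (-0.37). Hsp90b1 kept to the far side of that line in iTreg except with no normalization (-0.68).

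Co-chaperones went in both directions. Sil1, which exchanges the nucleotide of BiP, was at 1.45 ± 0.25 in Th2, 1.38 ± 0.24 in Th9 and 0.59 ± 0.21 in iTreg. Sdf2l1, a stress-induced partner of ER J-domain proteins, had 1.18 ± 0.23, 0.71 ± 0.22 and -0.28 ± 0.21. Dnajc3 (P58IPK) and Dnajb9 (ERdj4) are J-domain partners of BiP, and both were below naive cells. Dnajc3 had log2 intensities of 9.40, 9.52 and 10.01 in the cultures, against 10.57, 10.58 and 10.55 in naive cells. Its ratios were -1.17 ± 0.24, -1.06 ± 0.24 and -0.54 ± 0.21, the reverse of the order of Hsp90b1. Dnajb9 stood at -1.05 ± 0.24, -0.95 ± 0.23 and -0.99 ± 0.23, and at -0.32 in Th2 by a dimmer second probe that was measured on that array alone. Under median centring neither was 2-fold lower in Th2 or Th9, with -0.84 and -0.95 for Dnajc3, while Dnajb9 was at -1.27 in iTreg. Manf, a secreted stress-responsive protein, was at 0.58, 0.24 and -0.34, and Creld2, an ER-resident protein with disulfide-bonded repeats, at 0.16, -0.12 and -0.65. Hyou1, a large chaperone and nucleotide exchange factor, was at 0.34 ± 0.28 in Th2 and 0.25 ± 0.31 in Th9 and was not well above background in iTreg. Dnajb11 (ERdj3) was not well above background in any channel and has no value.

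Of the lectin chaperones, which hold glycoproteins during folding, the membrane protein calnexin (Canx) was at 1.18 ± 0.23 in Th2, 1.20 ± 0.23 in Th9 and 0.40 ± 0.21 in iTreg. Its soluble counterpart calreticulin (Calr) was at 0.41 ± 0.21, 0.08 ± 0.20 and -0.41 ± 0.21, and at 1.05 in Th2 under median centring.

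The disulfide enzymes held the largest ratios of the set. Ero1l (NM_015774, now Ero1a), the oxidase that reoxidises protein disulfide isomerase, had a log2 intensity of 12.65 in Th2, 12.21 in Th9 and 10.30 in iTreg, against 7.77, 7.44 and 7.36 in naive cells. Its ratios were 4.88 ± 0.57, 4.77 ± 0.56 and 2.94 ± 0.40, or 29.4-, 27.4- and 7.68-fold. With no offset they were 5.33, 5.34 and 3.45, and with the scanner's processed signals 5.55, 5.47 and 3.71. Both of these iTreg values lay further from 2.94 than its error of 0.40. So did both Th9 values from 4.77 (error 0.56). In Th2 the value with processed signals lay further from 4.88 than the error of 0.57, and the value with no offset did not. The naive signal of Ero1l was dim and varied most among the members, with an SD of 0.22 over the 3 naive channels. P4hb (NM_011032), protein disulfide isomerase itself, had 14.72, 14.23 and 12.80 in the cultures, against 11.65, 11.70 and 11.63 in naive cells. It was 8.36-fold higher in Th2 (3.06 ± 0.36), 5.77-fold in Th9 (2.53 ± 0.32) and 2.26-fold in iTreg (1.17 ± 0.23). Every culture stood above its naive channel for both genes, and iTreg was the lowest culture. The other isomerases did not share these ratios. Pdia6 was at 0.85 ± 0.22, 0.53 ± 0.21 and -0.46 ± 0.21, Pdia4 at 0.26, 0.16 and -0.28, and Pdia3, the isomerase that works with calnexin, at -0.57, -0.49 and -0.57 (0.07 in Th2 under median centring).

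**Figure D3:**
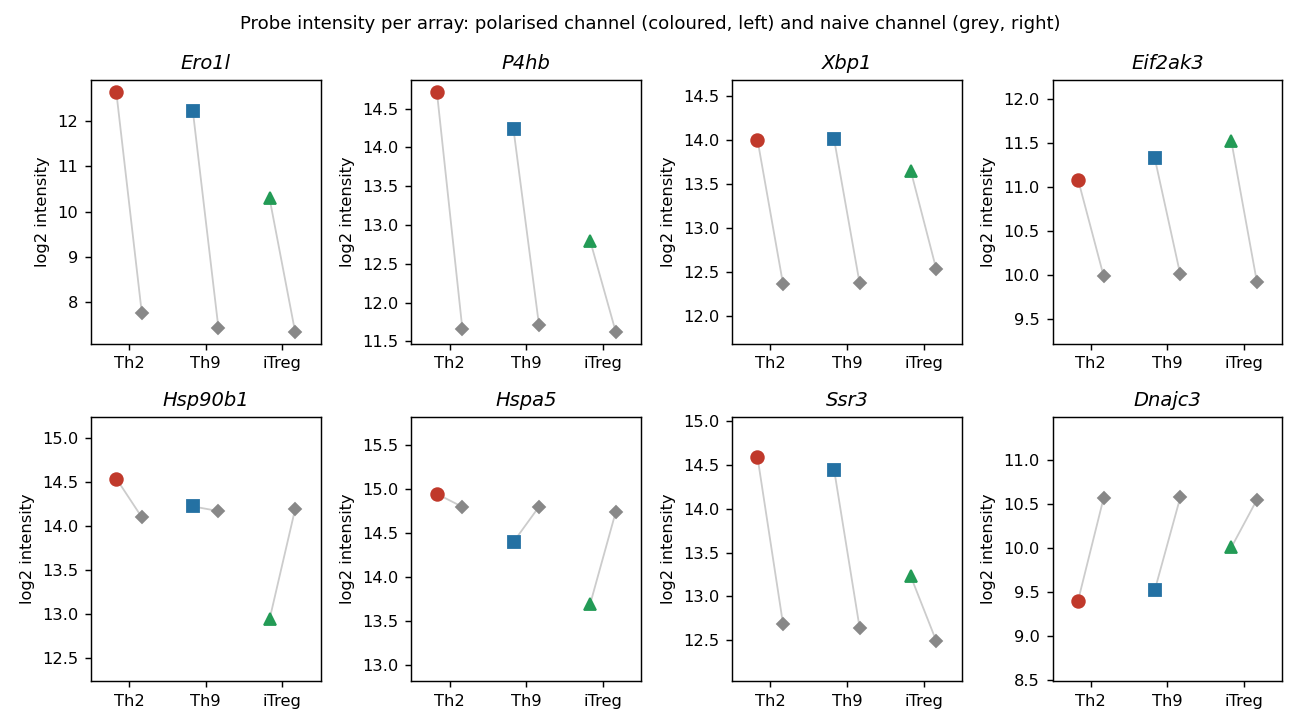
Log2 probe intensity of 8 members on each array after quantile normalization between arrays, the culture on the left of each pair (coloured) and naive cells on the right (grey), joined by a line. Ero1l, P4hb, Xbp1, Eif2ak3 and Ssr3 are above naive cells on all 3 arrays, Hsp90b1 and Hspa5 drop clearly below naive cells on the iTreg array, and Dnajc3 is below on all 3; each panel has its own axis, and levels are not comparable between genes.

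ERAD removes misfolded proteins through a channel around the ligase Syvn1 (HRD1) and its partner Sel1l. Of its 7 genes, 1 reached 2-fold above naive cells in Th2 and Th9 and 0 did in iTreg, near the shares of all genes (14.8%, 15.5% and 10.2%). That gene was Derl1, a channel protein, at 1.16 ± 0.23, 1.09 ± 0.23 and 0.00 ± 0.20, but its second probe gave -0.18, -0.23 and -0.63. The probes of Derl1 thus differ by more than 2-fold in Th2 and Th9, and its sign there rests on the probe. The mannosidase-like factors Edem1 and Edem2 were at -0.80, -0.64 and -0.91 and at 0.15, 0.23 and -0.23. Syvn1 was at -0.55, -0.74 and -0.76, Herpud1, a stress-induced scaffold of that ligase, at -0.42, -0.42 and -0.58, and Derl2 at -0.48, -0.65 and -0.36. In Th2 these 3 turned to 0.12, 0.23 and 0.22 under median centring. Sel1l was at 0.22, -0.21 and -0.10.

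Of 6 translocon genes, 4 were at least 2-fold higher in Th2, 3 in Th9 and 0 in iTreg, where 14.8%, 15.5% and 10.2% of all genes were. Their medians were 1.15, 0.84 and 0.13. Ssr3 (NM_026155), the gamma subunit of the translocon-associated TRAP complex, had a log2 intensity of 14.59, 14.44 and 13.23 in the cultures, against 12.69, 12.64 and 12.49 in naive cells. Its ratios were 1.90 ± 0.28, 1.80 ± 0.27 and 0.74 ± 0.22, and a second probe gave 1.80, 1.74 and 0.72. The TRAP subunits Ssr1 and Ssr2 were at 1.27, 1.06 and 0.25 and at 1.04, 0.63 and 0.01. The dimmest probe of Ssr1 gave 0.19, 0.22 and 0.01, over 2-fold below the brightest in Th2. Of the channel subunits themselves, Sec61g was at 1.32 ± 0.24, 1.18 ± 0.23 and 0.73 ± 0.22, Sec61a1 at 0.48, 0.40 and -0.28, and Sec61b at 0.38, 0.49 and -0.30 (1.23, 1.23 and 0.32 by its second probe).

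Of the 32 members with a value for all cultures, 4 were at least 2-fold higher in each one, namely Xbp1, Eif2ak3, P4hb and Ero1l (12.5%, against 7.29% of 10349 genes). No member was at least 2-fold lower in every culture (6.02% of genes). The 3 ratios share naive cells as their denominator, so they are not independent.

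The cultures were next compared with each other through their ratios against naive cells, in which a dye effect of a gene cancels. The iTreg and Th2 media differed in TGF-β1, in IL-4 or its blockade and in the doses of IL-2 and anti-IFN-γ. Of 32 members, 10 (31.2%) were at least 2-fold lower in iTreg than in Th2 cells, where 6.69% of 10538 genes were, and 0 were higher, where 6.87% were. The difference, iTreg minus Th2, was -1.94 ± 0.70 for Ero1l, -1.89 ± 0.43 for P4hb, -1.69 ± 0.31 for Hsp90b1, -1.46 ± 0.31 for Sdf2l1 and -1.31 ± 0.30 for Pdia6. Hspa5 followed with -1.19 ± 0.30, then Ssr3 (-1.16), Derl1 (-1.15), Ssr2 (-1.02) and Ssr1 (-1.02). They thus span chaperones, disulfide enzymes, TRAP subunits and 1 ERAD gene, with no sensor among them. The members' median difference was -0.72, against -0.00 for all genes, and 28 of 32 lay below 0, where 50.1% of genes did. Above 0 were Dnajc3 (0.63 ± 0.32), Eif2ak3 (0.50 ± 0.34), Derl2 (0.12 ± 0.29) and Dnajb9 (0.07 ± 0.33), of which only Dnajc3 stayed above 0 with median centring (0.02). That scaling gave 21 members lower and 0 higher, but it also moved all genes, to 2829 lower and 240 higher with a median of -0.59, and the members' median of -1.64 lay -1.05 from it. Each of the 10 remained at least 2-fold lower in iTreg with the scanner's processed signals, no offset, median centring, no normalization and a direct comparison of the Cy5 channels, in which Hspa5 differed by -1.29 and Hsp90b1 by -1.70. By the mean of all probes, Derl1 (-0.80) and Ssr1 (-0.70) did not reach 2-fold. Of 8 markers of CD4 T cells, 3 were at least 2-fold higher in iTreg than in Th2 and 0 lower, with a median of 0.76. The summed myeloid markers were also higher in iTreg, as given above. Of the 2 myeloid markers measured in both cultures, 1 differed by 1.00 and the other by 0.00. The part of either marker set in the ER result was not tested.

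The iTreg and Th9 media both held TGF-β1, at 5 and 2 ng/ml, and IL-2, at 0.4 and 0.2 ng/ml. IL-4 was given in Th9 and blocked in iTreg. The effects of these differences cannot be told apart. Of 32 members, 5 (15.6%) were at least 2-fold lower in iTreg than in Th9 cells, where 6.29% of 10480 genes were, and 0 were higher, where 6.8% were. The difference, iTreg minus Th9, was -1.83 ± 0.69 for Ero1l, -1.36 ± 0.39 for P4hb, -1.30 ± 0.31 for Hsp90b1, -1.09 ± 0.31 for Derl1 and -1.06 ± 0.35 for Ssr3. All 5 were also among the 10 of the comparison with Th2, which has the iTreg array in common. By the mean of all probes 4 were lower, where 6.07% of all genes were, and Derl1 did not reach 2-fold. Sdf2l1 and Pdia6 lay just short of 2-fold, both at -0.99 ± 0.30, and Hspa5 stood at -0.64 ± 0.30. The members' median was -0.52, against 0.01 for all genes, and 27 of 32 lay below 0 (49.3% of genes). With median centring 19 were lower and 0 higher, while all genes went to 1765 lower and 320 higher with a median of -0.37. Of the CD4 T cell markers 5 of 8 were higher in iTreg than in Th9, by a median of 1.02.

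Th9 and Th2 cells both received IL-4, at 1 and 5 ng/ml, and their media also differed in TGF-β1 and in the doses of IL-2 and anti-IFN-γ. Th9 and Th2 cells did not differ by 2-fold in any of 33 members, where 1.28% of 10459 genes were higher and 1.38% lower in Th9. The largest differences, Th9 minus Th2, were -0.55 ± 0.29 for Hspa5, -0.53 ± 0.48 for P4hb and -0.47 ± 0.32 for Sdf2l1 on one side and 0.23 ± 0.33 for Eif2ak3 on the other. In 23 of 33 members the difference lay below 0, as in 53.0% of genes, with a median of -0.10 (-0.02 for all genes). Under median centring 32 of 33 did, with the median of all genes at -0.23. At 2-fold the split of all genes was 102 higher and 244 lower under that scaling, against 134 and 144 with loess.

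Placed in order, iTreg had the lowest ratio of the 3 cultures in 26 of 32 members, where 42.8% of genes had it lowest. The exceptions were Atf6, Eif2ak3, Dnajb9, Dnajc3, Sel1l and Derl2. The spread of intensity over the 3 cultures had a median SD of 0.38 for the members and 0.26 for all genes, against 0.05 for both over the 3 naive channels. These intensities were quantile-normalised between arrays, so the SDs are not those of the channels as scanned. Neighbouring cultures were within their errors for many members. For Xbp1, Canx and Herpud1, Th2 and Th9 differed by at most 0.03, with errors of 0.29 to 0.36.

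**Figure D4:**
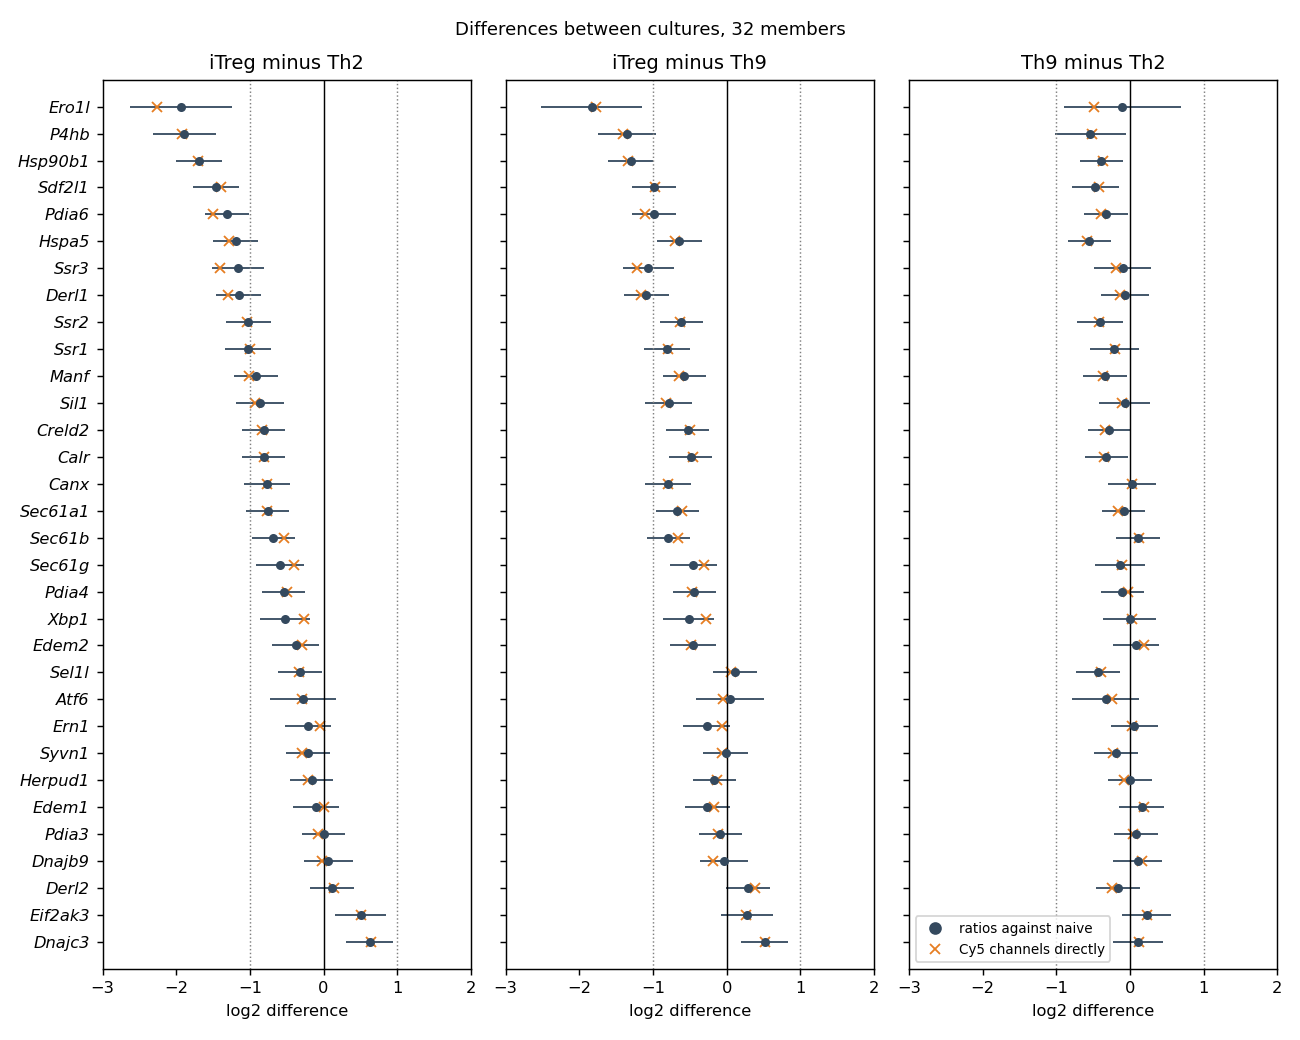
Log2 differences between cultures for the 32 members measured on all 3 arrays, from ratios against naive cells (dots, with bars for the combined scanner error) and from the Cy5 channels directly (crosses), with dotted lines at 2-fold. From Ero1l to Ssr1 the dots lie at or past -1 for iTreg minus Th2, while all dots for Th9 minus Th2 lie between -0.55 and 0.23.

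**Figure D5:**
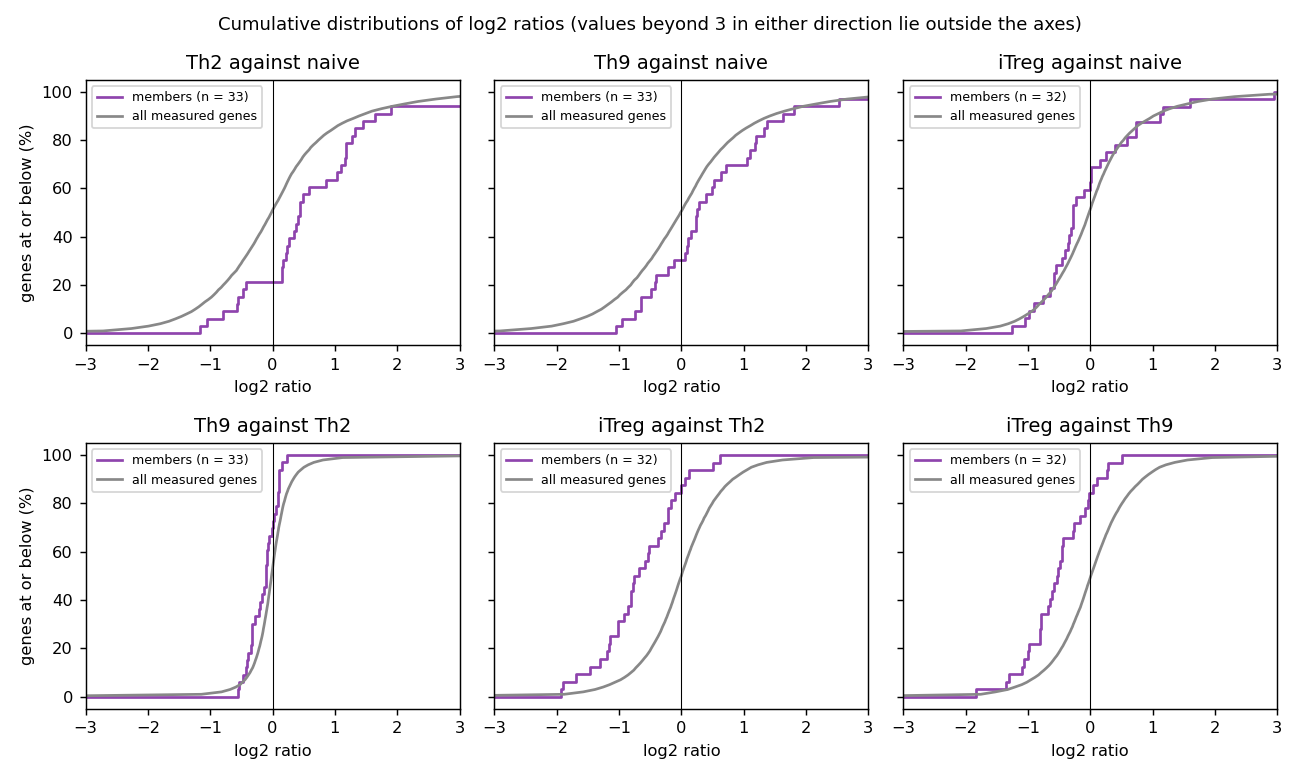
Cumulative share of members (purple) and of all measured genes (grey) at or below each log2 ratio, for the 3 comparisons with naive cells (top) and between cultures (bottom). The purple curve lies right of the grey one for Th2 against naive cells and left of it for iTreg against Th2 and against Th9, where 28 and 27 of 32 members lie below 0.

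The 10 genes with an exact match to the ERSE or ERSE-II did not include Ero1l or P4hb, the members with the highest ratios in Th2 and Th9. All but Dnajb11 were measured, and the median ratio of these 9 was 0.16 in Th2, -0.12 in Th9 and -0.58 in iTreg. The 17 members with a window but no exact match to either element had medians of 0.38, 0.49 and -0.10. Between iTreg and Th2, 3 of 9 with an element were at least 2-fold lower (Hsp90b1, Pdia6 and Hspa5) and 8 of 9 lay below 0, with a median of -0.81. Without one, 5 of 17 were lower and 14 of 17 below 0, with a median of -0.52. Of all 32 members 31.2% were at least 2-fold lower and 87.5% below 0, and of all genes 6.69% and 50.1%. Dnajc3, which also has an ERSE, differed by 0.63 where Hspa5 differed by -1.19. Whether the groups with and without an element differ was not tested.

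Other genes of the pathway, 121 in 9 lists, were counted by the same rule. Of 112 measured in Th2, 23 stood at least 2-fold above naive cells and 5 below, and for Th9 these were 22 and 6 of 113. For iTreg they were 8 and 8 of 111. The shares of all genes given above for these comparisons are 14.8% and 14.5% in Th2, 15.5% and 15.6% in Th9, and 10.2% and 8.15% in iTreg. Their medians were 0.26, 0.27 and -0.06. Between iTreg and Th2, 2 of 110 were higher (6.87% of all genes) and 12 lower (6.69% of all genes), with a median of -0.40. For iTreg against Th9, 1 of 111 was higher and 9 lower, where 6.8% and 6.29% of all genes were. Between Th9 and Th2, 0 of 112 reached 2-fold, where 1.28% of all genes were higher and 1.38% lower.

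The list for the arm downstream of PERK, which runs through ATF4, had 7 of 12 genes higher and 1 lower in Th2. It had 6 and 1 of 12 in Th9, and 2 and 2 of 10 in iTreg. PERK activity was not measured, and whether PERK acted on these genes was not tested. The shares of all genes were 14.8%, 15.5% and 10.2% higher and 14.5%, 15.6% and 8.15% lower. The counts of this arm leave out Chac1, which was not well above background in naive cells. It was higher by at least 3.42 in Th2, 2.19 in Th9 and 1.20 in iTreg (named after its values were seen). Nupr1, a stress-induced nuclear protein, was at 4.43 ± 0.61 in Th2 and 4.75 ± 0.64 in Th9. In iTreg, where its naive signal was not well above background, it was higher by at least 3.11 and is not in the count. Atf3, a stress-induced transcription factor, was at 4.05 ± 0.50 in Th2 and 3.54 ± 0.51 in Th9, and at least 0.59 higher in iTreg. Trib3, a pseudokinase induced by ATF4, was higher in all 3 cultures (2.88, 2.17 and 2.23), as was Cebpb (1.29, 1.13 and 1.01). Ppp1r15a (GADD34), which directs the dephosphorylation of eIF2α, was lower in all 3, at -1.20, -1.36 and -1.80, and Bbc3 (PUMA) was at -0.29, -0.56 and -0.64. Atf4 itself was at 1.14, 0.83 and -0.06 and Ddit3 at 2.58, 1.96 and 0.97 (both named after their values were seen). Between iTreg and Th2, 0 of 10 genes of this arm were at least 2-fold higher and 4 lower, with a median of -0.67. The shares of all genes were 6.87% and 6.69%.

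Among partners of the sensors, Creb3l2, an ER-bound factor of the ATF6 type, was at 2.04, 1.89 and 1.26, and Nfyb at 0.92, 0.21 and 0.51. Nfyc, another subunit of NF-Y, the factor that binds the CCAAT box, was at -1.96, -2.02 and -1.17, and Creb3 at -1.35, -1.53 and -1.17. In translocation, the signal recognition particle gene Srp72 was at 1.77, 1.99 and 1.24 and the fourth TRAP subunit Ssr4 at 0.90, 1.17 and 0.94, while Tram1 was at -0.53, -0.83 and -0.19 and Sec62 at -0.52, -0.29 and -0.38. The signal peptidase subunit Spcs3 was at 1.33, 1.41 and 1.13, and Stt3a, a catalytic subunit of the glycan transferase, at 1.33, 1.17 and -0.02. In the same list Sec11a was at -0.54, -0.64 and -0.66 and Dad1 at -0.58, -0.52 and -0.64.

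Glycan and lectin genes spread widely. Lman1, a cargo receptor, was at 1.64, 1.39 and 0.47 and its partner Mcfd2 at 0.70, 0.55 and 0.27. The glucosidase gene Mogs was at -1.80, -2.05 and -1.19, and Uggt1, the folding sensor of glycoproteins, at -0.37, -0.79 and -1.06. Among further ERAD genes Derl3 was at 1.35, 1.80 and 2.18 and the conjugating enzyme Ube2j1 at 1.09, 1.38 and 0.67, while the lectin Os9 was at -0.88, -1.11 and -0.75 and Ube2j2 at -0.36, -0.41 and -0.32. Derl3 was thus highest in iTreg, unlike most of the set. Prdx4, an ER peroxiredoxin, had the highest ratios of the other oxidoreductases (2.94 ± 0.35, 3.71 ± 0.42 and 1.87 ± 0.27) among those measured, and Txndc12 was at 0.87, 0.83 and 0.46. Ero1lb, the paralog of Ero1l, was at -0.04, -0.37 and -0.50 and Txndc11 at -0.48, -0.85 and -0.88.

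Serp1, which associates with the translocon under stress, was at 1.95, 1.96 and 1.21 and Fkbp2 at 0.73, 0.63 and 0.16, with Hspa13 (0.16, 0.40 and 0.11) and Ppib (-0.13, -0.10 and -0.26) lowest in that list. In export and retrieval, 4 of 16 genes were higher in Th2 and in Th9 and 0 in iTreg, where 14.8%, 15.5% and 10.2% of all genes were. Kdelr2, a receptor that returns ER proteins such as BiP and GRP94 from the Golgi, was at 2.39 ± 0.31, 2.20 ± 0.30 and 0.52 ± 0.21, and the coat subunit Sec23a at 1.56, 1.43 and 0.64. Sec24b (-0.49, -0.53 and -0.55) and Sec24c (-0.28, -0.47 and -0.78) were the lowest there.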

How the data were processed

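RNA of Th2, Th9 and iTreg cultures and of naive CD4 T cells was measured on 3 Agilent arrays, 1 per culture, on 1 slide. The authors deposited scanner output of Agilent Feature Extraction, version 11.0.1.1 per the file headers and 9.3.2.1 per the submitters' processing notes. Per the file headers, it gives the median intensity of each spot and of its surroundings, an intensity already corrected for background and dye, the log10 ratio (Cy5 to Cy3) of the corrected signals, a log10 error, and flags for spots above background, saturated or outlying. The deposited series values matched that ratio on the log2 scale after adding 0.0562 for Th2, 0.0206 for Th9 and 0.0365 for iTreg, within 0.001 for 99.3% to 99.4% of probes. Their column medians were 0.138, 0.259 and 0.283, so they are not centred.

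Median signals were background-corrected with normexp (offset 50) and then ratios were loess-normalised per array (limma 3.58.1 in R 4.3.3, files read with version 1.17.8 of its data.table package). Intensities, with their sums and SDs, were taken after quantile normalization of the mean intensity of both dyes between arrays, which leaves the ratios unchanged. For the direct Cy5 comparison, the background-corrected Cy5 signals were quantile-normalised between arrays. Outlier spots were dropped and spots of a probe averaged. Further steps used Python 3.11.15, pandas 2.3.3 and numpy 2.4.6, and plots with matplotlib 3.10.9. Of 39429 probes, 26055 (66.1%) matched 1 gene of GRCm38.p6 by unversioned RefSeq accession. The brightest probe stood for a gene. Of the 34 members, 27 had 1 probe and 7 had several. A gene was measured where at least 0.5 of its spots were flagged above background for Cy5 and for Cy3. A value called "at least" is a bound set by the lowest signal that passed the flag, or by the gene's own signal if higher. The error is the scanner software's log10 error, per the file headers, converted to log2, and that of a difference is the root of the summed squares. Whether 1 naive extract served all arrays is not given in the labels. The steps were tested on simulated arrays.

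The members and lists were chosen with earlier results of these data known. Named genes are all members, the up to 2 highest and lowest of each other list by mean ratio, and those at least 2-fold from naive on all 3 arrays. Alternatives were the processed signals, offset 0, median centring, no normalization, the series values, the mean of all probes, no filter on dim probes, a 1.5-fold threshold and a direct Cy5 comparison. The number of arrays limits the precision.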

Additional observations from a re-analysis of the deposited data

Results flagged for a closer look

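Hsp90b1, Sdf2l1 and Pdia6 lay on opposite sides of naive cells in iTreg and in Th2, each beyond its scanner error, and differed between these cultures by at least 2-fold. The difference, iTreg minus Th2, was -1.69 for Hsp90b1 (ratios of -1.25 in iTreg and 0.44 in Th2), -1.46 for Sdf2l1 (-0.28 and 1.18) and -1.31 for Pdia6 (-0.46 and 0.85). With no normalization Pdia6 was at 0.07 and Sdf2l1 at -0.04 in iTreg, both within their errors of 0.21, so their opposite sides depend on the scaling. The second probe of Pdia6 gave -0.38 in iTreg and 0.37 in Th2, less than 2-fold apart. The differences were not tested, since each culture had 1 array.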

How the results depend on the processing

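No member that was at least 2-fold higher or lower changed sign under any alternative run, whereas counts and medians moved with the scaling. With median centring, Th2 against naive cells had 19 members higher and 0 lower with a median of 1.43, and Th9 had 0 lower with a median of 0.57. Against Th2, iTreg had 21 lower with a median of -1.64, and against Th9 it had 19 lower with a median of -1.14. With no normalization, Th2 had 19 higher and 0 lower with a median of 1.40, Th9 had 0 lower with a median of 0.76, and iTreg had 0 lower with a median of 0.14, above 0 where the main value was -0.28. Against Th2, iTreg then had 18 lower with a median of -1.09, and against Th9 13 lower, where 8.87% and 8.15% of all genes were lower. Th9 against naive cells had 2 lower with the processed signals and with the series values, Dnajb9 being the addition. Of all genes, 19.3% and 18.9% were lower in Th9 under these settings. By the mean of all probes, Th2 had 10 higher and 1 lower, Th9 had 8 higher, iTreg against Th2 had 8 lower and iTreg against Th9 had 4 lower. Of all genes, 14.4% were then higher and 13.2% lower in Th2, and 15.2% were higher in Th9. In iTreg, 6.54% of all genes were lower against Th2 and 6.07% against Th9. At 1.5-fold, Th9 had 5 lower, iTreg had 7 higher and 6 lower, iTreg against Th2 had 1 higher and 18 lower, and iTreg against Th9 had 14 lower. At that threshold 27.3% of all genes were lower in Th9, 18.4% higher and 19.0% lower in iTreg, 16.6% higher and 16.2% lower in iTreg against Th2, and 15.3% lower in iTreg against Th9. The cause of the shifts with scaling was not tested. No paired analysis was possible because each culture has 1 array. Matching probes by a gene name column was planned and not run, since the files used here hold accessions. With 1 array per culture, variation between cultures, gene-specific dye effects against naive cells and position on the slide cannot be told apart from the cell types.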
